A study of Mus musculus with 12 samples.

Results

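Stat2, Irf1, Irf3, Irf7, Irf9, Ddx58, Ifih1, Dhx58 and Ifnar1, which encode a receptor chain, transcription factors and RNA sensors of the type I interferon system, were followed across 12 RNA-seq libraries. These 9 genes were taken by symbol from the 23253 genes of the deposited count table, with earlier results of these data known. The libraries were made from C57BL/6 mouse cortical neurons sorted by flow cytometry, per the labels, with 3 libraries in each of 4 groups. The series is about GDF10, a growth factor related to TGF-beta, and its part in axonal sprouting and functional recovery. The first group is adult stroke with GDF10 siRNA, called siRNA-labelled stroke here, and the second is adult stroke without a stated siRNA. The third is a control group labelled P4, and the last is adult control, both without a stated stroke or siRNA. Stroke was photothrombotic, from 15 min of cold light on the exposed skull after rose bengal, a photosensitive dye, with a focus of 2 mm. The labels leave out what P4 means, though they call all mice adult, how long after stroke the cells were taken, how the siRNA was delivered, or whether stroke animals received a control siRNA. Nor do they tell whether the libraries of a group came from separate animals, so p-values measure the spread between these libraries, which may be technical.

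Type I interferons are secreted when a cell detects foreign or misplaced nucleic acid, and they bind a receptor of 2 chains, of which Ifnar1 encodes one. The bound receptor activates STAT proteins, and STAT2 and IRF9 take part in a complex that switches on target genes through a promoter element called the interferon-stimulated response element (ISRE). Several of the sensors and factors of the system are themselves targets of that complex, so the system can raise its own components. In the brain, neurons, microglia, astrocytes and infiltrating cells can all respond to interferon.

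Total counts were between 10517638 and 48633350 per library, and adult control 3 had the lowest. Adult control 3 also stood apart from the rest, with a mean correlation of 0.684 with the other libraries. Libraries of siRNA-labelled stroke and adult control carry the numbers 1 to 3, and those of the other 2 groups 4 to 6. A batch along these numbers cannot be told apart from the group in every comparison below but that of siRNA-labelled stroke with adult control. Reads of Rn45s, a ribosomal RNA precursor, took 2.11% to 2.44% of counts in stroke and at least 2.08% in siRNA-labelled library 3 and adult control 2, against at most 0.427% in the other 7 libraries. Gdf10, the gene targeted by the siRNA, had 8, 7 and 1 counts in siRNA-labelled stroke and 0, 5 and 0 counts in stroke, so these levels do not check the siRNA label. The label of sorted neurons was set against marker genes. Markers of oligodendrocytes took 5.78% to 9.89% of counts in siRNA-labelled stroke, 4.80% to 5.83% in stroke, 0.0103% to 0.0271% in P4 and 3.37% to 9.001% in adult control. Pan-neuronal markers took 0.145% to 0.253%, 0.148% to 0.198%, 0.582% to 0.719% and 0.206% to 0.608% in the same 4 groups, and no marker of either list was at 0 in a whole group. In such bulk libraries, fewer cells of a type and less RNA per cell cannot be told apart.

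Levels are given as CPM, the usual depth-scaled read count, on library sizes scaled with TMM factors, in the order of the library numbers. All 9 genes passed the filter on low counts, which asked for 0.381 CPM in at least 3 libraries. Irf7 reached that level in every stroke and siRNA-labelled library, in 2 of 3 P4 libraries and in 2 of 3 adult control libraries, and Dhx58 missed it in 1 adult control library.

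Ifnar1 (chromosome 16, 91485032 to 91510523, mm10), the receptor chain, had 42.9, 63.2 and 51.7 CPM in siRNA-labelled stroke, 74.4, 55.6 and 72.6 CPM in stroke, 84.1, 87.7 and 64.0 CPM in P4, and 49.8, 59.8 and 58.2 CPM in adult control. It was expressed in all 12 libraries, and neighbouring groups in the order of the means overlapped throughout. Per kilobase of exon it was the highest of the 9 genes in adult control, with a mean level of 9.42 CPM per kb, and also in P4 and siRNA-labelled stroke, at 13.2 and 8.85 CPM per kb.

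Stat2 (chromosome 10, 128270498 to 128292853, mm10), the STAT specific to the interferon complex, had 35.8, 40.4 and 42.7 CPM in siRNA-labelled stroke, 92.7, 117 and 105 CPM in stroke, 26.5, 26.0 and 15.6 CPM in P4, and 34.5, 25.9 and 22.8 CPM in adult control. Every stroke library lay above every other library, the siRNA-labelled libraries came next, and P4 and adult control overlapped. Irf9 (chromosome 14, 55603985 to 55610030, mm10), the DNA-binding partner of STAT2, had 17.5, 23.5 and 27.7 CPM in siRNA-labelled stroke, 67.0, 47.1 and 73.8 CPM in stroke, 8.37, 7.09 and 2.92 CPM in P4, and 4.88, 7.48 and 14.6 CPM in adult control. Irf9 showed the same order, with stroke and siRNA-labelled stroke each clear of the groups below and P4 overlapping adult control. Per kilobase, the mean level of Stat2 in stroke was 17.7 CPM per kb, the highest of the 9 genes there, against 4.68 CPM per kb in adult control.

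Irf3 (chromosome 7, 44997648 to 45002848, mm10), a factor that is present in resting cells and activated by phosphorylation downstream of RNA and DNA sensors, had 27.0, 9.38 and 10.4 CPM in siRNA-labelled stroke, 13.7, 11.2 and 7.11 CPM in stroke, 6.08, 6.58 and 1.77 CPM in P4, and 13.1, 17.5 and 1.60 CPM in adult control. Its adult control libraries differed more among themselves than the group means did, with library 3 lowest, and siRNA-labelled library 1 was the highest of all. Irf7 (chromosome 7, 141263183 to 141266499, mm10), a factor induced by interferon that amplifies interferon production, had 13.3, 4.57 and 10.08 CPM in siRNA-labelled stroke, 11.9, 14.4 and 10.7 CPM in stroke, 1.497, 0.872 and 0.0634 CPM in P4, and 1.94, 1.02 and 0 CPM in adult control. Both stroke groups were above all P4 and adult control libraries and overlapped each other. Irf1 (chromosome 11, 53770014 to 53778374, mm10), a factor best known as a target of interferon gamma, had 10.15, 10.02 and 16.9 CPM in siRNA-labelled stroke, 19.0, 20.5 and 29.1 CPM in stroke, 0.898, 1.27 and 0.761 CPM in P4, and 2.93, 6.58 and 0.912 CPM in adult control. Stroke was highest without overlap, siRNA-labelled stroke next without overlap, and P4 overlapped adult control.

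Ddx58 (chromosome 4, 40203777 to 40239825, mm10), which encodes RIG-I, a sensor of short double-stranded RNA with triphosphate ends, had 51.9, 27.2 and 26.5 CPM in siRNA-labelled stroke, 81.7, 104 and 130.3 CPM in stroke, 2.47, 3.01 and 4.69 CPM in P4, and 11.6, 14.3 and 13.2 CPM in adult control. It was the only one of the 9 genes whose 4 groups did not overlap at any step. Ifih1 (chromosome 2, 62595618 to 62646255, mm10), which encodes MDA5, a sensor of long double-stranded RNA, had 30.6, 91.1 and 29.9 CPM in siRNA-labelled stroke, 61.9, 75.0 and 65.8 CPM in stroke, 3.72, 2.99 and 6.02 CPM in P4, and 5.75, 5.47 and 13.9 CPM in adult control. One siRNA-labelled library, number 2, lay above all stroke libraries and the other 2 lay below them. Dhx58 (chromosome 11, 100694884 to 100704271, mm10), which encodes LGP2, a relative of the sensors that lacks their signalling domains, had 1.67, 7.64 and 3.73 CPM in siRNA-labelled stroke, 3.94, 5.06 and 1.68 CPM in stroke, 0.786, 0.951 and 1.46 CPM in P4, and 0.674, 0.497 and 0 CPM in adult control. siRNA-labelled library 2 was again the highest, and every P4 library lay above every adult control library. Per kilobase, Dhx58 had the lowest mean level of the 9 genes in siRNA-labelled stroke, stroke and adult control, at 1.33, 1.09 and 0.119 CPM per kb, and Irf7 in P4, at 0.215 CPM per kb.

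**Figure D1:**
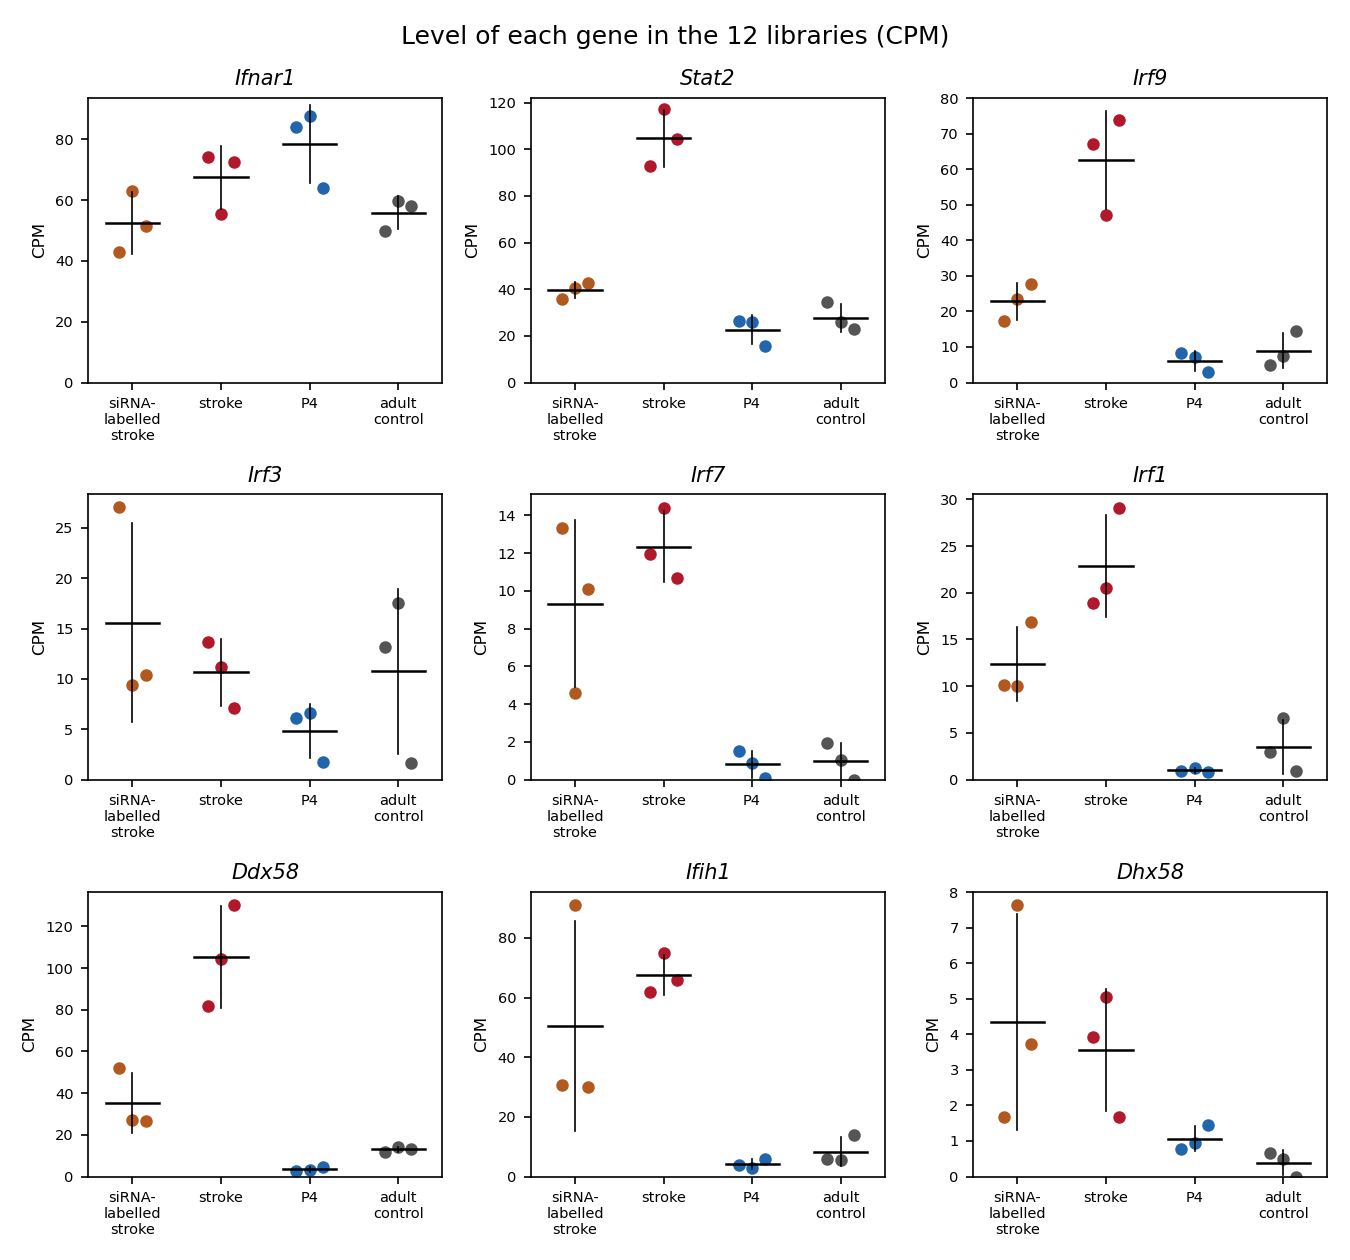
CPM of each of the 9 genes in the 12 libraries, by group, with 1 point per library and a bar for the mean with its SD. Stat2, Irf1, Irf9 and Ddx58 have stroke libraries above all others, and in Irf3 and Ifnar1 the stroke libraries overlap those of adult control.

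Start-site windows were searched for an ISRE core, GAAA, any 2 bases and GAAA, and for a gamma-activated site (GAS) core, TTC, any 3 bases and GAA, both on either strand. The windows are those RefSeq gives for GRCm38.p6, the assembly of mm10, and 8 of the 9 genes had at least 1 window. The ISRE core was found in Stat2, Ddx58 and Ifih1, and 3.43% of all 32817 windows hold it. The GAS core was found in Irf1 and Ifnar1, and 8.29% of all windows hold it. The matches do not overlap each other, and a match is a description of the letters and not of a bound site. The stretches below are shown because they hold the ISRE cores of 3 of the 4 genes that rose in stroke and the GAS core of Irf1, with the core in capitals and each stretch written 5′ to 3′ on the strand of its gene. Stat2 is given from the plus strand at chr10:128270248-128270497, Ddx58 from the minus strand at chr4:40239806-40239925, Ifih1 from the minus strand at chr2:62646206-62646235 and Irf1 from the plus strand at chr11:53769864-53769964.
Stat2: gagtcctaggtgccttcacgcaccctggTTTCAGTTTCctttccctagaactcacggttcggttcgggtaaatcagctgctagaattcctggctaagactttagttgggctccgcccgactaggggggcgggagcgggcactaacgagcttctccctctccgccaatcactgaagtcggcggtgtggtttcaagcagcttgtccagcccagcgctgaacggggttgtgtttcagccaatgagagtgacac
Ddx58: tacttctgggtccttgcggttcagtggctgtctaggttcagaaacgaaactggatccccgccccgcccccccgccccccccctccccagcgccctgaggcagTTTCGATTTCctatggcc
Ifih1: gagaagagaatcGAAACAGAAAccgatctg
Irf1: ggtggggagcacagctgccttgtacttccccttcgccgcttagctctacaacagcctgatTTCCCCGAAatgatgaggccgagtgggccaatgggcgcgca
The core of Stat2 lies at bases -222 to -213 from the start site and that of Irf1 at -90 to -82. The end of the Stat2 window was found in no GENCODE transcript of Stat2, so positions in it are less certain. The ends of all other windows were found in transcripts of their genes. The cores of Ddx58 and Ifih1 lie just inside the transcript, at bases 3 to 12 and 33 to 42. The core of Ifnar1, at bases -5 to 4, spans the start site.

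**Figure D2:**
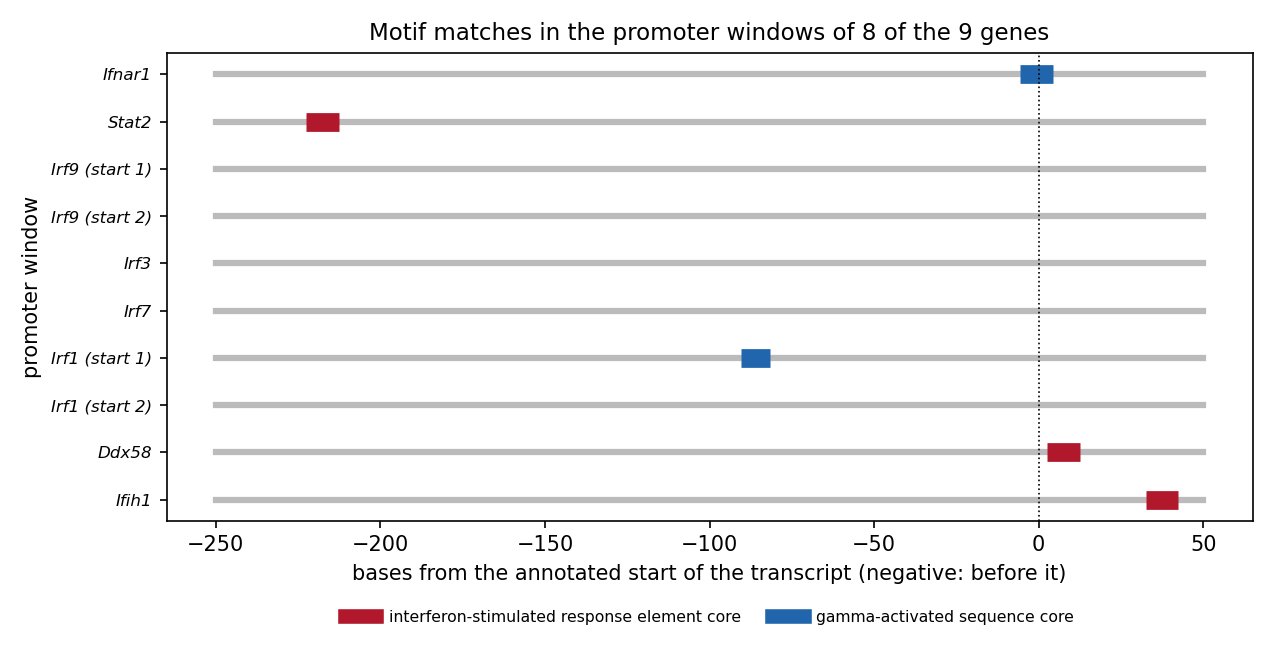
Positions of ISRE and GAS cores in the start-site windows of the genes, in bases from the start site. ISRE cores appear in Stat2, Ddx58 and Ifih1 and GAS cores in Irf1 and Ifnar1.

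Stroke was set against adult control to see which genes differ after stroke. Stat2, Irf9, Ddx58 and Ifih1 rose, which is 4 of 9 genes, while 0.486% of the 17909 genes tested were called higher. Stat2 averaged 105 ± 12.21 CPM in the stroke libraries and 27.7 ± 6.06 CPM in adult control (SD, n = 3 each), a log2 fold change of 1.92 with SE 0.36 (edgeR quasi-likelihood test, Benjamini-Hochberg adjusted p = 0.0243). Irf9 averaged 62.7 ± 13.9 CPM in the stroke libraries and 8.98 ± 5.03 CPM in adult control, a log2 fold change of 2.81 with SE 0.54 (adjusted p = 0.0287). STAT2 and IRF9 are partners in the interferon complex, and both passed. Of the sensors, Ddx58 averaged 105 ± 24.3 CPM in the stroke libraries and 13.0 ± 1.34 CPM in adult control, a log2 fold change of 3.01 with SE 0.43 (adjusted p = 0.0044). Ifih1 averaged 67.6 ± 6.69 CPM in the stroke libraries and 8.38 ± 4.80 CPM in adult control, a log2 fold change of 3.02 with SE 0.57 (adjusted p = 0.0243). Irf1, Irf7 and Dhx58 did not pass, although their stroke libraries lay above all adult control libraries. Their log2 fold changes were 2.70 for Irf1 (95% interval 1.23 to 4.16, adjusted p = 0.0943), 3.59 for Irf7 (1.17 to 6.00, adjusted p = 0.161) and 3.11 for Dhx58 (0.60 to 5.62, adjusted p = 0.226). Irf3 and Ifnar1 did not pass either, at log2 fold changes of -0.02 (95% interval -1.68 to 1.65) and 0.27 (-0.40 to 0.95). In all, 7 of 9 genes had stroke libraries that did not overlap adult control and were higher, against 11% of all genes tested. The median log2 fold change was 2.81 over the 9 genes and -0.08 over all genes. In the authors' deposited table, 6 of the 9 genes were higher in stroke at a false discovery rate under 0.05. They were these 4 with Irf1 and Irf7. The share of all genes passing in the deposited table was not counted, in this or any later comparison.

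The count of 4 depended on single libraries more than the fold changes did. Ddx58 kept its call whichever of the 6 libraries was left out, with adjusted p between 0.00729 and 0.0449. Ddx58 was also the only gene called after stroke 4, 5 or 6 or adult control 1 was left out, since Stat2, Irf9 and Ifih1 then did not pass, with adjusted p up to 0.117, 0.135 and 0.119. Over the 6 fits the log2 fold change of Stat2 was 1.7999 to 2.11, that of Irf9 2.52 to 3.34 and that of Ifih1 2.80 to 3.59. Irf1 passed without adult control 2, which made the count 5. With a term for the libraries high in Rn45s, chosen after seeing the data, Ddx58 and Ifih1 kept their calls, and Stat2 and Irf9 did not, at log2 fold changes of 1.91 and 2.77. Of all genes tested, 0.486% were called higher in stroke and fewer were called lower, as counted in the last section. Of 7 astrocyte markers, 4 fell in stroke and 0 rose with edgeR. At an unadjusted p under 0.05, 1 astrocyte marker was higher, which DESeq2 also called, Gfap. The summed share of the 7 was 0.0542% to 0.0822% of counts in stroke and 0.390% to 0.598% in adult control. Microglia and macrophage markers took 0.0301% to 0.0973% of counts in stroke and 0.0719% to 0.0966% in adult control. None of these 10 microglia markers was called with edgeR, while 1 was lower at an unadjusted p under 0.05 and 1, P2ry12, with DESeq2. Oligodendrocyte precursor markers took 0.236% to 0.317% of counts in stroke and 0.0521% to 0.287% in adult control. Of these 5 markers 0 were called with edgeR, while 3 were higher and 1 lower at an unadjusted p under 0.05, and 1 was higher with DESeq2, Gpr17. Of 8 oligodendrocyte markers, 1 rose with edgeR and with DESeq2, Cldn11, and 4 were higher at an unadjusted p under 0.05. Of 10 pan-neuronal markers, 0 were called with edgeR, and DESeq2 called 1 lower, Syt1. At an unadjusted p under 0.05, 1 of these 10 was higher and 4 were lower. No marker of these lists was at 0 in a group, and the part of these cells in the results was not tested.

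**Figure D3:**
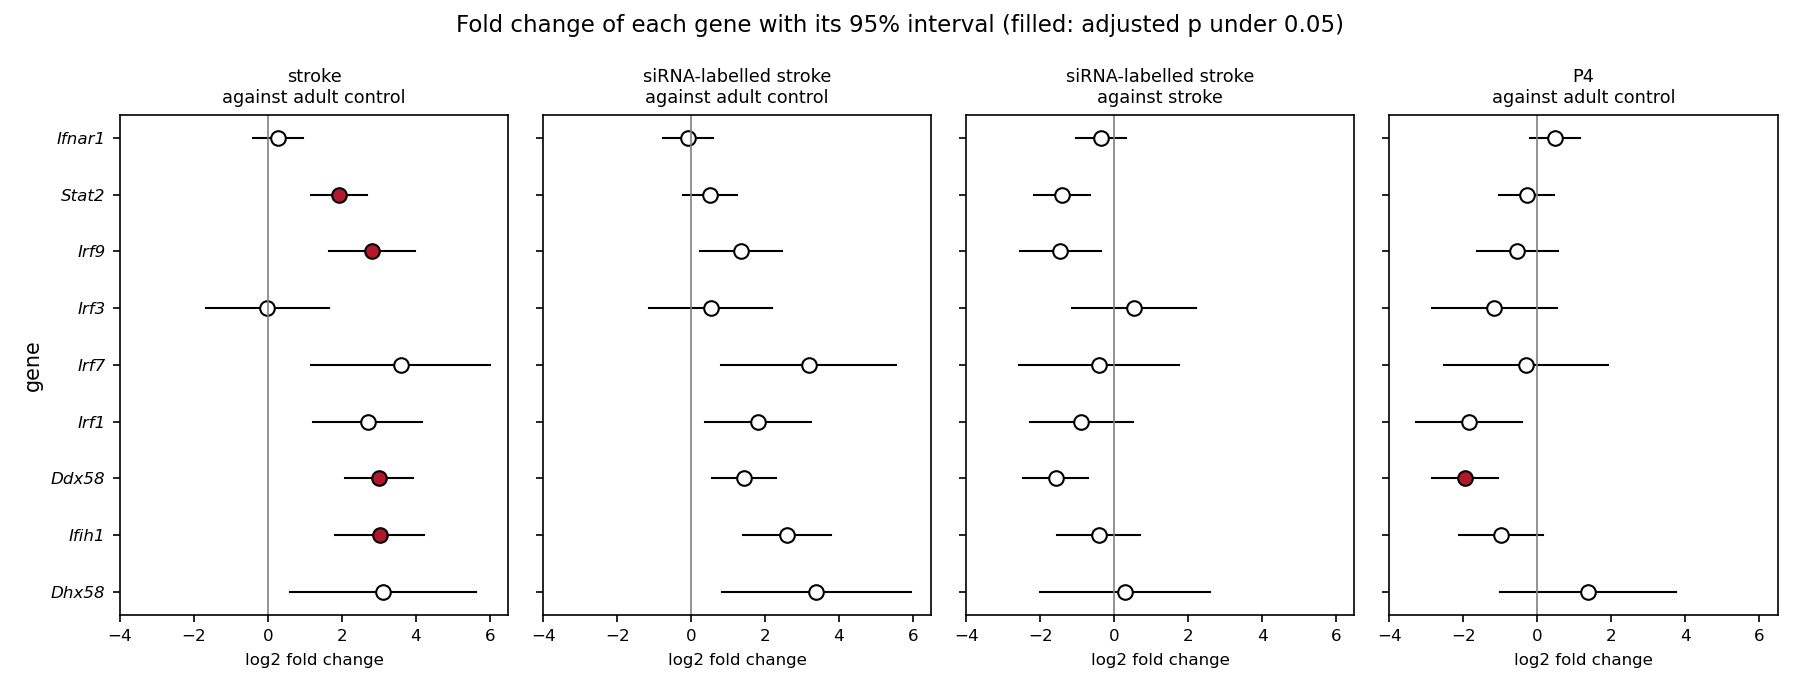
Log2 fold changes of the 9 genes in the 4 comparisons, with 95% intervals, and filled points for genes that passed the test. Stat2, Irf9, Ddx58 and Ifih1 are filled for stroke against adult control and Ddx58 for P4 against adult control, and no gene is filled in either siRNA comparison.

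The rest of the pathway in stroke was read from lists of its parts, while 0.486% of all genes tested were called higher. An unadjusted p under 0.05 was common in this comparison, which bears on the lists here and the markers above. Tlr9, at an unadjusted p of 0.0489 with edgeR, ranked 2804 by p among all 17909 genes tested. Of 20 interferon target genes, 8 rose and none fell, with a median log2 fold change of 4.20. They included Ifit1, which binds foreign RNA, at 8.80, and Oasl2, of the oligoadenylate synthetase family, at 6.66. Of 6 negative regulators, 1 rose, Usp18, which blocks signalling at the receptor, at 6.57. Of 7 other receptor chains and kinases, 0 passed with edgeR, with a median of 0.29, 1 higher at an unadjusted p under 0.05 and 1 with DESeq2, Ifnar2, which encodes the other receptor chain and had 1.43. Of 16 adaptors, kinases and other sensors, 0 passed with edgeR, with a median of 0.36, 3 higher at an unadjusted p under 0.05 and 1, Trim25, with DESeq2. Of 10 other STATs and IRFs, 0 passed with edgeR, with a median of -0.75. At an unadjusted p under 0.05, and also with DESeq2, 1 of these was higher, Stat3, and 1 lower, Stat5a. The interferons themselves were barely counted. Of 20 interferon genes listed, 19 were in the table and 1, Ifnk, passed the filter on low counts. Together the 19 had 309 counts in siRNA-labelled stroke, 173 in stroke, 68 in P4 and 249 in adult control. These sums are not scaled for depth, and Ifnk made up 182, 83, 13 and 165 of them in the same order. Ifnb1, the interferon made early in most cells, had 0, 10 and 0 counts in siRNA-labelled stroke, 0 in every stroke library, 0, 0 and 6 in P4 and 0 in every adult control library. Ifng, which encodes interferon gamma, had 1, 57 and 9 counts in siRNA-labelled stroke, 0, 4 and 0 in stroke, 0, 2 and 1 in P4 and 0 in every adult control library. The library with 57 counts, siRNA-labelled 2, was the highest of its group for Ifih1, Dhx58 and Ifnar1. It was the lowest of its group for Irf1, Irf3 and Irf7, and lay between the others for Stat2, Irf9 and Ddx58. A link of Ifng with these levels was not tested. Reads of the Ifna genes are uncertain, since they are near-identical copies.

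Set against adult control, siRNA-labelled stroke had 0 of 9 genes called with edgeR, while 0.117% of all genes tested were called. At an unadjusted p under 0.05, 6 of the 9 were higher, against 8.36% of all genes in either direction, and DESeq2 called 3, Irf7, Ifih1 and Dhx58. In the authors' deposited table, 1 of the 9 passed a false discovery rate of 0.05, Ifih1. Ifih1 averaged 50.5 ± 35.2 CPM in siRNA-labelled stroke and 8.38 ± 4.80 CPM in adult control, a log2 fold change of 2.60 (95% interval 1.42 to 3.79, adjusted p = 0.115). It was called after adult control 3 was left out, with a log2 fold change of 3.17, and in no other fit with a library left out. Its log2 fold change was lowest, at 1.87, without siRNA-labelled library 2. Irf7 had a log2 fold change of 3.18, Dhx58 of 3.39 and Irf1 of 1.81. Ddx58 averaged 35.2 ± 14.4 CPM in siRNA-labelled stroke and 13.0 ± 1.34 CPM in adult control, a log2 fold change of 1.43 (adjusted p = 0.309). Irf9 had a log2 fold change of 1.36, Irf3 of 0.53, Stat2 of 0.51 and Ifnar1 of -0.09. In 7 of 9 genes no library of one group reached into the other, all higher in siRNA-labelled stroke, against 6.35% of all genes tested. The median was 1.43 over the 9 genes and -0.02 over all genes. Of the 20 target genes, 3 rose, Ifit1 at 7.69, Oasl2 at 5.25 and Cxcl10, a chemokine, at 5.95. Microglia and macrophage markers took 0.127% to 0.252% of counts in siRNA-labelled stroke and 0.0719% to 0.0966% in adult control. None of these 10 markers was called with edgeR or DESeq2, while 4 were higher at an unadjusted p under 0.05. Astrocyte markers took 0.0758% to 0.142% of counts in siRNA-labelled stroke and 0.390% to 0.598% in adult control. Of these 7 markers 1 fell, Slc1a2, while DESeq2 called 4 lower. No marker of either list was at 0 in a group, and their part in the results was not tested. This comparison and the one of stroke with adult control share the adult control libraries.

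Set against stroke, siRNA-labelled stroke had 0 of 9 genes called with edgeR, and 0.00558% of all genes tested were called, which is 1 gene. At an unadjusted p under 0.05, 3 of the 9 were lower, Stat2, Irf9 and Ddx58, against 7.37% of all genes in either direction, and DESeq2 called 2, Stat2 and Ddx58. Of the 9 genes, 0 passed a false discovery rate of 0.05 in the authors' deposited table. The log2 fold change was -1.40 for Stat2 (95% interval -2.15 to -0.65, adjusted p = 0.445), -1.45 for Irf9 (-2.55 to -0.35, adjusted p = 0.594) and -1.58 for Ddx58 (-2.46 to -0.71, adjusted p = 0.445). Groups were also free of overlap in these 3 genes and Irf1, all lower in siRNA-labelled stroke, against 8.11% of all genes tested. Irf1 averaged 12.4 ± 3.93 CPM in siRNA-labelled stroke and 22.9 ± 5.46 CPM in the stroke libraries, a log2 fold change of -0.89 (adjusted p = 0.781). With the Rn45s term that of Irf1 was -0.071. The other 5 genes overlapped, with log2 fold changes between -0.42 for Ifih1 and 0.55 for Irf3. The log2 fold change of Ifih1 was -1.16 without siRNA-labelled library 2 and -1.11 with the Rn45s term, and it was not called in either fit. The 4 genes without overlap are both partners of the interferon complex, 1 sensor and Irf1. The median was -0.42 over the 9 genes and 0.04 over all genes, and -0.53 over the 20 target genes. Of these 20, 0 passed with edgeR, 2 were lower at an unadjusted p under 0.05 and 0 passed with DESeq2. Other lists differed in sign, with medians of 0.76 for other STATs and IRFs and 0.45 for other receptor chains and kinases. Adaptors, kinases and other sensors had 0.34 and negative regulators -0.07. None of these lists had a gene called with edgeR, while DESeq2 called Tlr7 and Tnfaip3, both higher. At an unadjusted p under 0.05, 1 negative regulator was lower, Usp18. Microglia and macrophage markers took 0.127% to 0.252% of counts in siRNA-labelled stroke and 0.0301% to 0.0973% in stroke. None of these 10 markers was called with edgeR and none was at 0 in a group, while 6 were higher at an unadjusted p under 0.05 and 3 with DESeq2. The highest share was that of siRNA-labelled library 2, and the part of these cells in the results was not tested.

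**Figure D4:**
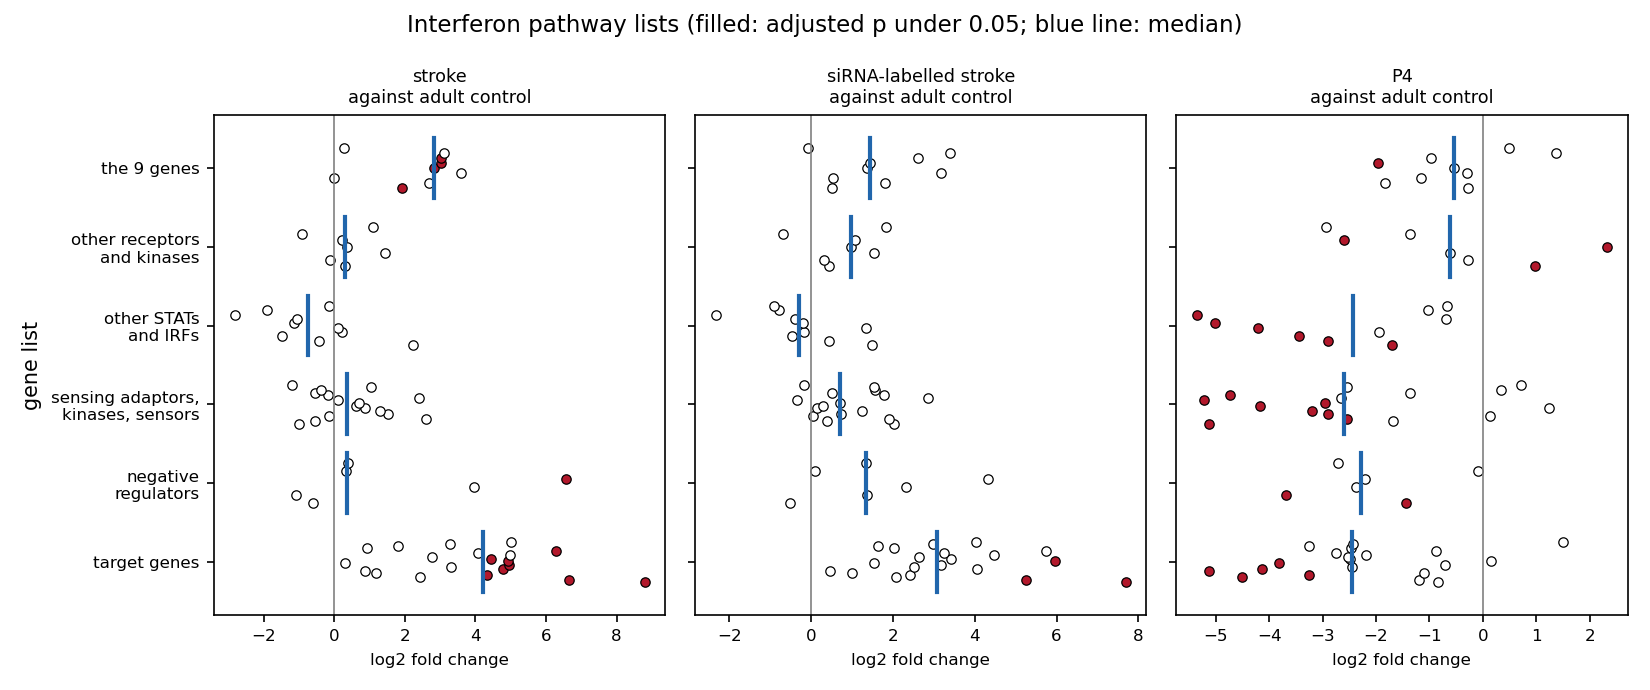
Log2 fold changes of the genes of the pathway lists in stroke, siRNA-labelled stroke and P4, each against adult control, with 1 point per gene. The target genes have a median of 4.20 in stroke, 3.08 in siRNA-labelled stroke and -2.45 in P4.

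P4 was set against adult control as the second control group of the study. Ddx58 fell, 1 of 9 genes, while 10.4% of all genes tested were called lower. It averaged 3.39 ± 1.16 CPM in P4 and 13.0 ± 1.34 CPM in adult control, a log2 fold change of -1.95 (95% interval -2.85 to -1.06, adjusted p = 0.00456), and the authors' deposited table also had it alone among the 9 at a false discovery rate under 0.05. Ddx58 was not called in a fit of P4 and adult control alone, where its log2 fold change was -1.88. Irf1 averaged 0.976 ± 0.263 CPM in P4 and 3.48 ± 2.87 CPM in adult control, a log2 fold change of -1.84 (adjusted p = 0.079). It was called after adult control 3 was left out, at -2.27, and in no other fit with a library left out. Its log2 fold change was nearest to 0 without adult control 2, at -0.99, and was -1.18 with the Rn45s term. Ifnar1 and Dhx58 were higher in every P4 library than in any adult control library and did not pass, at log2 fold changes of 0.49 (adjusted p = 0.333) and 1.36 (adjusted p = 0.460). Ifih1 had a log2 fold change of -0.98, Irf3 of -1.16, Irf9 of -0.54, Irf7 of -0.30 and Stat2 of -0.29. Groups were free of overlap in 3 of 9 genes, against 32.1% of all genes tested. The median was -0.54 over the 9 genes and -0.16 over all genes.

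The lists of the rest of the pathway are read in P4 against 10.4% of all genes tested called lower and 6.32% called higher. Of 10 other STATs and IRFs, 6 fell and 0 rose, among them Irf8, a factor of myeloid cells, at -4.20, and Irf2, a repressor of interferon targets, at -2.91. Of 16 adaptors, kinases and other sensors, 8 fell and 0 rose, among them Mavs, the mitochondrial adaptor through which RIG-I and MDA5 signal, at -4.16, with 0.781 CPM in P4 and 13.9 CPM in adult control, and Rnf135, a ubiquitin ligase of RIG-I, at -5.22. Of 7 other receptor chains and kinases, 2 rose, Jak1, a receptor-associated kinase, at 0.97 and Ifngr2, a chain of the interferon gamma receptor, at 2.32. In the same list 1 fell, Ifngr1, the other chain of that receptor, at -2.60. Of 6 negative regulators, 2 fell, Tnfaip3 at -3.69 and Cyld at -1.44, both deubiquitinases. Of 20 target genes, 5 fell, among them Ifi27 at -4.51 and Xaf1 at -5.12. Beside these, 8 of 8 oligodendrocyte, 9 of 10 microglia and macrophage and 4 of 7 astrocyte markers fell in P4. Microglia and macrophage markers took 0.00214% to 0.00382% of counts in P4 and 0.0719% to 0.0966% in adult control, and none was at 0 in P4, and their part in the results was not tested.

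The 9 genes were also compared by their pattern over all 12 libraries, as the Pearson correlation of log2 CPM. The libraries share groups and depth, so these are descriptions. Among pairs of the 9 genes, Irf1 and Ddx58 had the highest r at 0.909, then Ddx58 and Ifih1 at 0.899 and Stat2 and Irf9 at 0.898. Ifnar1 was apart from the other 8 genes, with r between -0.377 and 0.00838. The genes outside the list most like the mean of the 9 were Socs3, an inhibitor of cytokine signalling, at 0.972, Usp18 at 0.962, Cebpd, a transcription factor of the acute response, at 0.959, Adamtsl3 at 0.956 and Piezo2, a mechanosensitive channel, at 0.954. The most alike gene was Pik3r3 for Stat2 at 0.963 and for Irf9 at 0.955, Stat3 for Irf1 at 0.986, and Gbp6, an interferon-induced guanylate-binding protein, for Ddx58 at 0.978. For Ifih1 it was Dtx3l at 0.954, for Irf7 Ube2l3 at 0.969, for Irf3 Crtc2 at 0.942, for Dhx58 AI429214 at 0.925 and for Ifnar1 Prkar2a at 0.921.

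Some of the counts can include reads of a neighbour. No source used here gives the strand setting, which matters for Dhx58, Irf1, Irf3 and Irf7, whose neighbours lie on the opposite strand. The neighbour of Irf9 lies on the same strand, where a strand setting would not separate the reads. Exons of another gene overlap 4.31% of the exon bases of Dhx58, 3.4% of those of Irf1, 2.56% of Irf3, 2.28% of Irf9 and 1.19% of Irf7 in the GENCODE annotation.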

How the data were processed

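Gene expression was measured by RNA-seq in 12 libraries from total RNA, amplified by the Ovation RNA-seq kit and read as 69 bp pairs, per the labels' protocols. The submitters' processing notes name CASAVA 1.8.2, edgeR and mm10. For the aligner, counting tool, annotation and strand: not given in the sources used here. Raw counts per gene were deposited by the authors, and these were tested here. The log2 fold changes and p-values, with false discovery rates, of the authors' deposited table were used for description. Of its per-sample columns, 30 were not used. The first P4 column is headed P3 and was matched by its number 4.

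Counts were analysed in R 4.3.3. Genes were filtered with filterByExpr by group, scaled with TMM factors and fitted over all 12 libraries with 1 mean for each group by the quasi-likelihood test of edgeR 4.0.16. Benjamini-Hochberg adjustment covered all 17909 genes of a comparison, and a gene was called at an adjusted p under 0.05. The SE is the absolute log2 fold change over the square root of F. Alternatives were other scaling, no filter, DESeq2 1.42.0, fits of 2 groups, a replicate block, and each library left out. The fit was also run on simulated data with no batch and no outlying library, and no result here rests on that run. log2 CPM for correlations used a prior count of 2.

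The 9 genes, the gene lists and the rules were chosen with earlier results of these data known. The text names all 9 genes, up to 2 called members per pathway list and the nearest genes by pattern. Other list members were named after their values were seen. Of the gene lists, 2 genes are not reported here.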

Additional observations from a re-analysis of the deposited data

How the results depend on the processing

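The count of the 9 genes called was 4 for stroke against adult control. It was 7 with DESeq2, 1 in a fit of these 2 groups alone and 2 with the Rn45s term (chosen after seeing the data). With a library left out it was 1 to 5. Of 12 alternatives in all, Stat2 passed in 5, Irf9 in 6, Ifih1 in 7 and Ddx58 in 12. For siRNA-labelled stroke against adult control the count was 0, with DESeq2 3, and 0 to 1 with a library left out. For siRNA-labelled stroke against stroke it was 0, with DESeq2 2, in a fit of 2 groups 1 (Stat2), and 0 to 0 with a library left out. For P4 against adult control it was 1, with DESeq2 2, in a fit of 2 groups 0, and 1 to 2 with a library left out.

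Over all genes, stroke against adult control called 126 genes, 87 higher and 39 lower. DESeq2 called 1241, the fit of 2 groups 43, the Rn45s term 41, and a library left out gave 31 to 548. Scaling to total counts called 65 higher and 48 lower. siRNA-labelled stroke against adult control called 21 genes, and 13 with the size factors of DESeq2 (RLE), 13 with total counts, 40 without a filter, 333 with DESeq2, 0 in a fit of 2 groups, 40 with the Rn45s term and 5 to 25 with a library left out. siRNA-labelled stroke against stroke called 1 gene, and 0 with RLE, 2 without a filter, 163 with DESeq2, 88 in a fit of 2 groups, 0 with the Rn45s term and 0 to 0 with a library left out. P4 against adult control called 3001 genes, and 4528 with DESeq2, 1639 in a fit of 2 groups and 1852 to 3099 with a library left out. RLE moved the median of all genes to -0.19 in stroke against adult control, and total counts to -0.14 in siRNA-labelled stroke against adult control.

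With the replicate number as a block, siRNA-labelled stroke against adult control called 0 of the 9 genes and 0 of all genes. The deviations of each library from the mean of its group were also correlated between these 2 groups. Same-numbered libraries had correlations of 0.0642, -0.191 and -0.336, and different-numbered libraries had -0.317 to 0.481. With 3 libraries a group, this cannot settle whether same-numbered libraries were paired.

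Signs turned in 11 log2 fold changes, none of them called, each with 1 library left out. Irf3 in stroke against adult control was 0.21, 0.15 and 0.53 without stroke 6, adult control 1 and adult control 2, in a range of -0.52 to 0.53. Without siRNA-labelled 1, Irf3 was -0.13 against adult control (range -0.13 to 1.07) and -0.12 against stroke (range -0.12 to 0.80), and Ifnar1 was 0.041 against adult control (range -0.24 to 0.041). Dhx58 in siRNA-labelled stroke against stroke was -0.40 without siRNA-labelled 2 and -0.06 without stroke 6 (range -0.40 to 0.67). In P4 against adult control, Irf7 was 0.22 without P4 6 and 0.56 without adult control 1 (range -1.04 to 0.56), and Irf9 was 0.0020 without adult control 3 (range -0.82 to 0.0020). The causes were not tested. With 3 libraries a group, Irf7 and Dhx58, which had 0 counts in adult control 3, have wide intervals.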
